A study of Mus musculus with 15 samples.

Results

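The 10 integrin chain genes Itga4, Itga5, Itga6, Itgae, Itgal, Itgav, Itgb1, Itgb2, Itgb3 and Itgb7 were followed through 5 groups of sorted mouse thymocytes. The members were chosen by gene symbol in the array annotation, and all 10 were among the 11871 genes tested, of 18193 with a probe set. RNA was measured on Affymetrix mouse expression arrays, with 3 arrays in each group and 15 in all, and all mice were young adults on a C57BL/6 background. Pre-selected double-positive cells (PreDP, CD69-TCRβ-) and post-selected double-positive cells (PostDP, CD69+TCRβ+) came from B2m-/- mice, where positive selection yields MHC II-restricted CD4 T cells. Tak1-deficient SM&M1 cells (Qa2-CD69+) came from Tak1f/f CD4Cre mice, in which Cre under the CD4 promoter deletes the kinase Tak1 (gene Map3k7) in thymocytes that express CD4. The SM&M1 (Qa2-CD69+) and M2 (Qa2+CD69-) CD4 single-positive cells came from Rag2-GFP BAC transgenic mice. For these last sorts the labels describe gates on Rag2-GFP and against NK1.1, CD25 and GL3 that remove NKT cells, regulatory T cells, γδ T cells and recirculating T cells. From PostDP to SM&M1 the genotype changed together with the stage, so the effects of genotype and stage cannot be told apart in that comparison. Tak1-deficient SM&M1 and SM&M1 cells also came from different mouse lines, and the gates above are described for the SM&M1 and M2 sorts. Between these groups Tak1 loss therefore cannot be told apart from the other differences of line and sort. Levels are log2(signal + 16), and each gene was read from the brightest of its probe sets by the mean of 15 arrays. Gene positions are RefSeq's (GRCm38.p6).

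Integrins are surface receptors made of 1 α chain and 1 β chain, each encoded by its own gene, that attach cells to extracellular matrix or to other cells. Itgb1, Itgb2, Itgb3 and Itgb7 encode β chains, and each β chain accepts several α partners, so the α chain present sets which ligand is bound. In the thymus, integrins take part in the contact of thymocytes with stromal and antigen-presenting cells. On mature T cells, αLβ2 (LFA-1) binds ICAM-1, α4β7 binds the gut addressin MAdCAM-1, α4β1 binds VCAM-1 and αEβ7 (CD103) binds E-cadherin.

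RefSeq's promoter table (GRCm38.p6) held 5 of the 10 members, namely Itga4, Itga5, Itgav, Itgb1 and Itgb7. The 250 bases upstream of the annotated start are shown for Itgb7, which rose along the stages, and for Itga4 and Itgb1, the α4 and β1 chains that moved in opposite directions in M2 cells. Capitals mark matches, on either strand, to CACCC (KLF), TGNGGT (RUNX), CCGGAA (ETS) or GGNNTTNCC (NF-kB), and sequences run 5′ to 3′ on the gene's strand. The windows are chr15:102231936-102232185 on the minus strand for Itgb7, where the start used lies inside the annotated gene, chr2:79255176-79255425 on the plus strand for Itga4 and chr8:128685404-128685653 on the plus strand for Itgb1.
Itgb7: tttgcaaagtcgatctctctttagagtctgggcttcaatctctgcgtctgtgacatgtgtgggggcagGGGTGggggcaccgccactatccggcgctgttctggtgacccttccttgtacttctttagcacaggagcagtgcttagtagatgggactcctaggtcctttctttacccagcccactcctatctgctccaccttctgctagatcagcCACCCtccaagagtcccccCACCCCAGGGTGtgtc
Itga4: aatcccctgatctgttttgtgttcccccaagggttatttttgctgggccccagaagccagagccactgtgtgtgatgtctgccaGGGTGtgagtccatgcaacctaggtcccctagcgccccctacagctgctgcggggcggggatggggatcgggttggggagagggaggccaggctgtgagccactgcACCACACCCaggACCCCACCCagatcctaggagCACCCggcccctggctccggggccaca
Itgb1: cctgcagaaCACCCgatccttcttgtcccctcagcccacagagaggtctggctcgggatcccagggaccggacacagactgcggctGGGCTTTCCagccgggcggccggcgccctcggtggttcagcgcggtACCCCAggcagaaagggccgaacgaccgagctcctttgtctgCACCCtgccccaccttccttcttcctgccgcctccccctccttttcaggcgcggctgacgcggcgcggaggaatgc
The Itgb7 window held 4 CACCC matches and 1 TGNGGT match, whose letters overlap a CACCC match within 16 bases of the start. The Itga4 window held 4 CACCC and 2 TGNGGT matches, and both TGNGGT matches overlap a CACCC match, between 60 and 40 bases before the start. The Itgb1 window held 2 CACCC matches, 1 TGNGGT match and 1 GGNNTTNCC match, and it was the richest of the 5 in CpG, with 21 against a median of 6 over all windows. Over all 32536 windows of the same length in the table, 52.1% held CACCC, 40.2% held TGNGGT, 13.5% held GGNNTTNCC and 12.1% held CCGGAA. The Itga5 window held 1 TGNGGT match and the Itgav window 1 CACCC match, with no match to the other motifs. The TGNGGT matches of Itgb7, Itgb1 and Itga5 read ACCCCA, which is TGGGGT on the other strand and lies outside the RUNX core. The same holds for the Itga4 match that begins 48 bases before the start. Only the Itga4 match that begins 60 bases before the start, ACCACA or TGTGGT, has the letters of the RUNX core. The share of all windows with TGYGGT was not counted. All matches describe letters in the windows and are not binding sites measured here.

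All arrays were scaled to a trimmed mean of 500, and 14 of them had median signals between 80.52 and 121.46. The array of replicate 2 of the Tak1-deficient cells differed from the rest. Its median signal was 167.81, and it had an Actb 3′ to 5′ signal ratio of 1.62 against 1.02 to 1.18 elsewhere, and a highest correlation with its own group of 0.832. Map3k7 averaged 5.39 ± 0.65 in Tak1-deficient SM&M1 cells and 10.42 ± 0.03 in SM&M1 cells (SD, n = 3 each). At least 10 of 11 T cell markers with a probe set lay above the array median on every array. Cd8a measured 9.28, 10.22 and 9.38 in Tak1-deficient SM&M1 cells and 8.03, 7.68 and 7.65 in SM&M1 cells. Cd4 measured 11.38, 11.5 and 11.02 in the former and 12.02, 12.14 and 12.5 in the latter. The part of these differences in the results for these groups was not tested. Marker sums of other cells were high on 4 arrays. The 8 neutrophil markers with a probe set summed to a signal of 4047 and 5405 on Tak1-deficient SM&M1 replicates 2 and 3, to 3984 on SM&M1 replicate 1 and to 4374 on M2 replicate 1, against 350 to 643 on the other 11 arrays. The 11 macrophage markers summed to 1962 to 3639 on those 4 arrays and to 539 to 970 on the others. Xist and Eif2s3y were both high on all SM&M1 and M2 arrays, whereas each array of the other groups was high in 1 of them, so sex makeup also changed with the group. It differed within groups too. Xist measured 7.54, 14.01 and 7.42 in Tak1-deficient SM&M1 cells, so the array that stood apart also differed in sex from its group. In PreDP and PostDP cells replicate 2 was the array low in Xist, at 7.19 and 7.6. Of 8 tested dissociation and stress genes, 3 were lower in Tak1-deficient SM&M1 against SM&M1 cells, with a median log2 change of -1.34 over the list. Jun averaged 6.67 in Tak1-deficient SM&M1 cells and 10.51 in SM&M1 cells, and Hspa1a 5.34 against 7.88. In SM&M1 against PostDP cells 2 of the 8 were higher, with Hspa1a at 7.88 in SM&M1 cells and 5.55 in PostDP cells. Their part in the results of these comparisons was not tested. The labels call the replicates biological, but no label ties a sample to an animal. The p-values therefore measure the spread between samples, which may be partly technical. In sorted bulk RNA, fewer cells of a type and less RNA per cell cannot be told apart.

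In PostDP against PreDP cells, 3 of the 10 members passed the test (limma, adjusted p under 0.05), where 14.9% of all tested genes did. Itgb3 and Itgb7 were higher and Itga6 was lower. In SM&M1 against PostDP cells 2 of 10 passed, against 12.0% of all genes, and these were again Itgb3 and Itgb7, both higher. In M2 against SM&M1 cells 2 of 10 passed, against 2.33% of all genes, with Itga4 higher and Itgb1 lower. In Tak1-deficient SM&M1 against SM&M1 cells 1 of 10 passed, Itga5, which was lower, against 1.69% of all genes. The median log2 change of the 10 members was 0.43, 0.06, -0.13 and -0.29 in these comparisons, beside 0.01, 0.03, -0.01 and 0.05 over all tested genes. Adjacent comparisons share samples, so their values are not independent. These counts come from the fit of all groups without a replicate block. In fits of only the groups compared, with or without that block, more members passed in PostDP against PreDP and in M2 against SM&M1 cells. The same members passed there in SM&M1 against PostDP cells, and none in Tak1-deficient SM&M1 against SM&M1 cells. Calls over all 11871 genes changed too. In PostDP against PreDP cells they rose from 1772 to 2246 without the block and 2703 with it. In M2 against SM&M1 cells they rose from 277 to 428 and 594. In Tak1-deficient SM&M1 against SM&M1 cells they fell from 201 to 5 and 0.

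**Figure D1:**
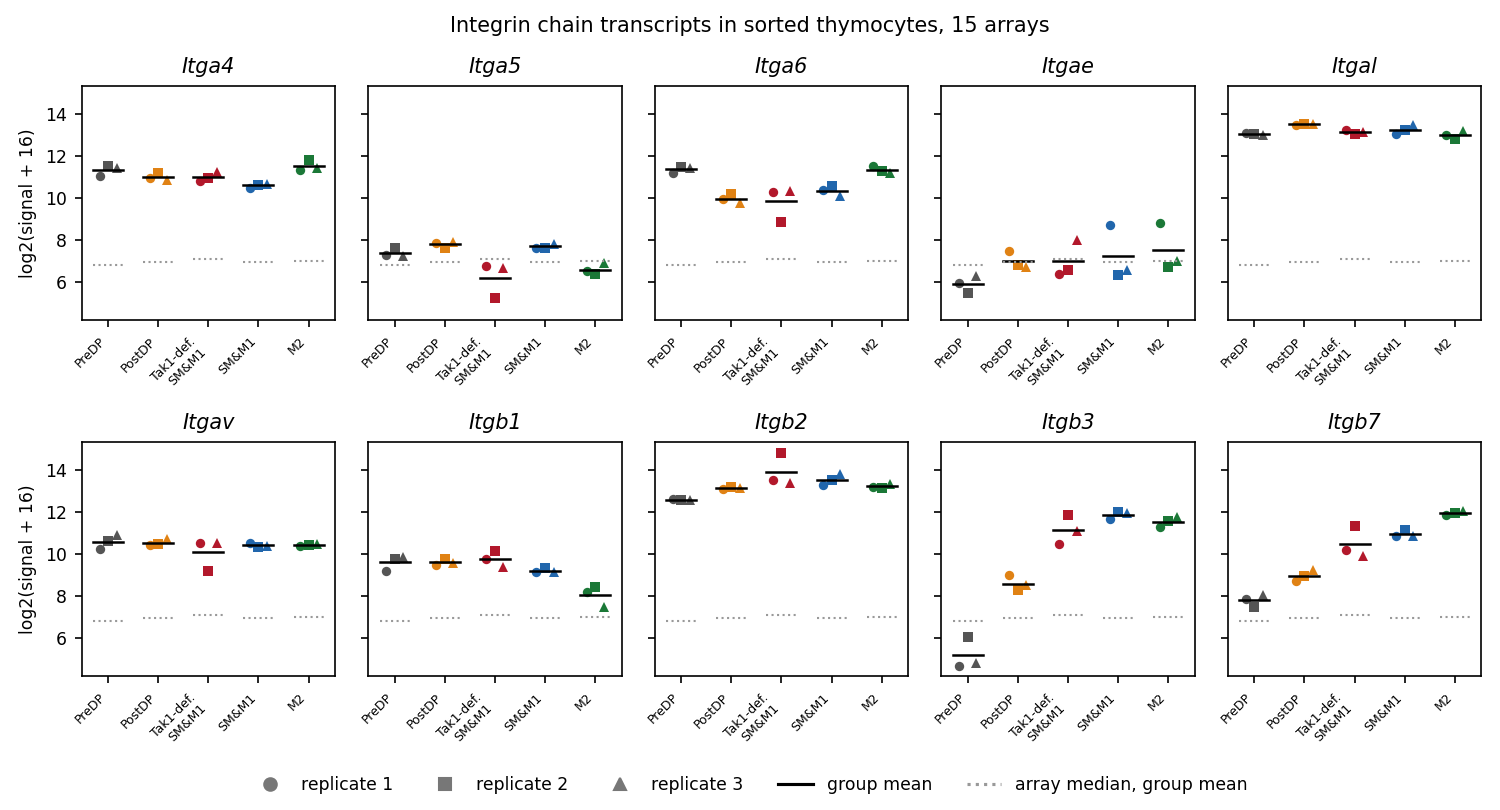
Level of each integrin chain gene on every array, as log2(signal + 16), with the 3 arrays of each group as points, the group mean as a bar and the mean array median as a dotted line. Itgb3 climbed from below the array median in PreDP cells to means of 11.15 to 11.87 in the 3 single-positive groups, while Itgav means stayed between 10.07 and 10.58; levels are not comparable between genes.

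**Figure D2:**
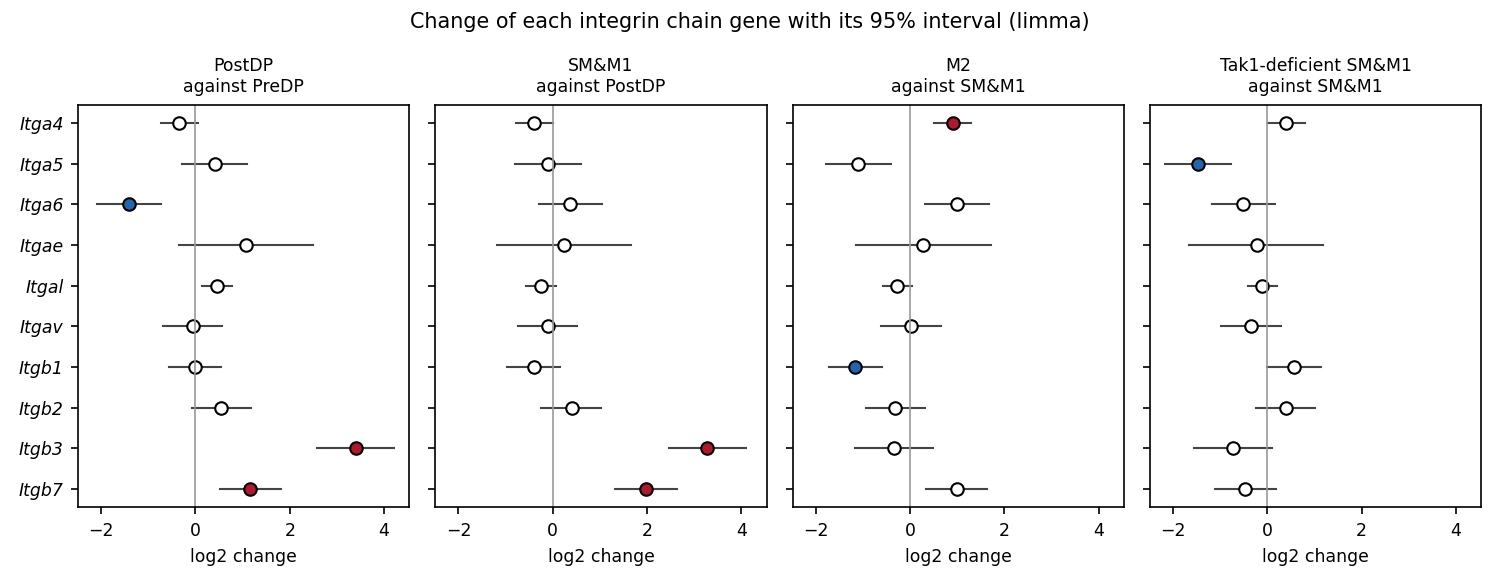
Log2 change of each gene in the 4 comparisons, with its 95% interval from limma; filled points passed the adjusted p threshold (red higher, blue lower) and open points did not. The Itgb3 intervals run from 2.58 to 4.22 in PostDP against PreDP and from 2.46 to 4.10 in SM&M1 against PostDP, farther from 0 than those of any other member in these comparisons.

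The β3 chain pairs with αv to form a receptor for vitronectin and other ligands that carry the RGD sequence. Itgb3 (chr11:104608000-104670476) measured 4.68, 6.07 and 4.81 on the PreDP arrays, 8.98, 8.28 and 8.52 on the PostDP arrays, 11.66, 12.01 and 11.94 on the SM&M1 arrays and 11.27, 11.56 and 11.76 on the M2 arrays. The PreDP values all lay below their array median, the PostDP values lay between those and the single-positive values with no overlap, and the SM&M1 and M2 arrays overlapped. Itgb3 rose by 3.40 ± 0.38 (log2 change ± SE, adjusted p = 4.322e-05, limma) in PostDP against PreDP cells. Since the PreDP level lay below the array median, the fold is given against that median, and the PostDP mean was at least 3.4-fold higher than it. It rose by a further 3.28 ± 0.38, or 9.72-fold, in SM&M1 against PostDP cells (limma adjusted p = 9.354e-05). In M2 against SM&M1 cells the log2 change was -0.34 ± 0.38 (adjusted p = 0.963), with an interval of -1.16 to 0.48.

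The dimmer of the 2 probe sets of Itgb3 lay below the array median on every PostDP and PreDP array, so it could not measure the first of these steps. It averaged 5.10 in PostDP cells and 4.95 in PreDP cells. It averaged 8.21 in SM&M1 cells against 5.10 in PostDP cells, a rise of 3.11 ± 0.31 (adjusted p = 2.791e-05). The rise into SM&M1 cells was thus seen by both probe sets, and the rise into PostDP cells could be read from the brighter one alone. With the mean of both, the PostDP against PreDP log2 change was 1.78 ± 0.21, and over all alternatives it ran from 1.78 to 4.26.

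Itgav (chr2:83722303-83806917), the αv partner of β3 and of several other β chains, had no step between stages that passed the test. It measured 10.25, 10.61 and 10.88 in PreDP cells, 10.43, 10.45 and 10.69 in PostDP cells, 10.50, 10.35 and 10.39 in SM&M1 cells and 10.40, 10.41 and 10.46 in M2 cells. The arrays of neighbouring stages overlapped. Its log2 changes were -0.06 ± 0.29 in PostDP against PreDP, -0.11 ± 0.29 in SM&M1 against PostDP and 0.01 ± 0.29 in M2 against SM&M1, with 95% intervals that reached no farther than 0.74 on either side of 0. The other 4 Itgav probe sets did not reach the limit for testing, which was a signal above the array median on at least 3 arrays. Itgb5, a further β partner of αv and no member of the 10, averaged 8.23 ± 0.92 in PreDP cells, 9.45 ± 0.32 in PostDP cells, 10.17 ± 0.38 in SM&M1 cells and 10.72 ± 0.04 in M2 cells (SD, n = 3 each), and none of these single steps passed the test, although PostDP against PreDP did in 7 of 26 alternatives. Of 8 tested chains outside the 10, Itga8, whose product pairs with β1, was the only one that passed, averaging 7.04 in SM&M1 cells and 5.99 in PostDP cells (log2 change 1.05 ± 0.24, adjusted p = 0.0121), close to the array median. That call was lost with the eBayes trend and robust options and without PostDP replicate 3 or SM&M1 replicate 1, and Itga8 passed as lower in M2 against SM&M1 cells in 5 of 26 alternatives. Itga2b, whose product joins β3 on platelets, averaged between 8.43 and 8.61 in the 4 stages.

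The β7 chain pairs with α4 and αE. Itgb7 (chr15:102215994-102233405) measured 7.86, 7.47 and 8.07 on the PreDP arrays, 8.69, 8.97 and 9.22 on the PostDP arrays, 10.83, 11.15 and 10.85 on the SM&M1 arrays and 11.83, 11.93 and 12.03 on the M2 arrays. The 4 stages did not overlap and each later stage lay higher. Itgb7 rose by 1.16 ± 0.30 in PostDP against PreDP cells, or 2.24-fold (limma adjusted p = 0.0193). This first call did not hold with quantile normalization or without PreDP replicate 2, PostDP replicate 2 or PostDP replicate 3, where the adjusted p reached 0.0861. In SM&M1 against PostDP cells the rise was 1.98 ± 0.30, or 3.95-fold (adjusted p = 0.000908). In M2 against SM&M1 cells the log2 change was 0.99 ± 0.30 with an adjusted p of 0.15. In a fit of only these groups this last change passed (0.99 ± 0.14, adjusted p = 0.0149), as it did there with the replicate number as a block (adjusted p = 0.0301), and it also passed without Tak1-deficient SM&M1 replicate 2, which widens the spread that all groups share (adjusted p = 0.00621). Itgb7 has 1 probe set, so no second reading of it exists on the array.

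Itga4 (chr2:79255426-79333114) encodes the α4 chain, the partner of β7 and of β1. It measured 11.06, 11.53 and 11.40 in PreDP cells, 10.95, 11.18 and 10.83 in PostDP cells, 10.49, 10.63 and 10.68 in SM&M1 cells and 11.32, 11.78 and 11.42 in M2 cells. SM&M1 cells were lowest, and their arrays overlapped neither those of PostDP cells nor those of M2 cells. Itga4 rose by 0.91 ± 0.18 in M2 against SM&M1 cells, or 1.88-fold (limma adjusted p = 0.0191). The log2 change was -0.34 ± 0.18 in PostDP against PreDP cells (adjusted p = 0.269) and -0.39 ± 0.18 in SM&M1 against PostDP cells (adjusted p = 0.211). The other 2 probe sets above the limit had M2 against SM&M1 log2 changes of 0.64 ± 0.22 and 1.09 ± 0.47, in the same direction, and neither passed. The call in M2 cells was lost in 7 of 26 alternatives, among them the mean of all probe sets (0.61 ± 0.24, adjusted p = 0.333), centring each array on its median (0.86 ± 0.26, adjusted p = 0.198) and leaving out any 1 SM&M1 array or M2 replicate 2 or 3.

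Itgae (chr11:73090505-73147449) encodes αE, which defines CD103+ T cells and some dendritic cells. It measured 5.95, 5.50 and 6.30 in PreDP cells, 7.47, 6.79 and 6.69 in PostDP cells, 8.73, 6.33 and 6.59 in SM&M1 cells and 8.81, 6.69 and 7.0 in M2 cells. The signal was dim, above its own array median on 4 of 15 arrays, and the highest values were those of SM&M1 replicate 1 and M2 replicate 1, more than 1 log2 unit above the other arrays of their groups. In Tak1-deficient SM&M1 cells it measured 6.40, 6.56 and 8.0. The 3 highest arrays, SM&M1 replicate 1, M2 replicate 1 and Tak1-deficient SM&M1 replicate 3, are 3 of the 4 arrays with high neutrophil and macrophage marker sums. The 11 NK and innate-like T cell markers were high on the same 3 arrays, with 10 of 11 above the array median on each. The 9 dendritic cell markers summed to 5211 on SM&M1 replicate 1, 5981 on M2 replicate 1 and 4490 on Tak1-deficient SM&M1 replicate 3, beside 1245 to 4432 on the other 12 arrays, the highest of these being M2 replicate 3. On that array Bst2, 1 of these markers, measured 11.77, and it averaged 10.91 in SM&M1 and 11.42 in M2 cells. H2-Aa measured 7.13 there and 10.8, 10.98 and 11.13 on the 3 arrays highest in Itgae. Of the 9 markers, 5, 7 and 8 lay above the array median on those 3 arrays, and 6 on M2 replicate 3. The part of such cells in the Itgae signal was not tested. Rag1, which averaged 14.47 in PreDP cells, measured 10.55 on SM&M1 replicate 1 and 10.41 on M2 replicate 1. It measured 6.93 to 8.05 on the other SM&M1 and M2 arrays, and 9.83, 8.85 and 11.2 in Tak1-deficient SM&M1 cells. Cd8a, which averaged 13.89 in PreDP cells, measured 8.03, 7.68 and 7.65 in SM&M1 cells. The part of these differences was not tested either. No Itgae comparison passed the test, with log2 changes of 1.07 ± 0.66 in PostDP against PreDP, 0.23 ± 0.66 in SM&M1 against PostDP and 0.28 ± 0.66 in M2 against SM&M1 cells. PostDP and PreDP arrays did not overlap, and in the limma fit of only these groups this difference passed (1.07 ± 0.28, adjusted p = 0.0368, or 0.0355 with the replicate block). Of these arrays only PostDP replicate 1 lay above its own median (7.47 against 6.95), so the step was read mostly from values below the median. Itgae met the limit for testing through that array and the 3 highest. The later changes turned sign with single arrays. Without SM&M1 replicate 1 the Itgae log2 change was -0.52 in SM&M1 against PostDP cells, and without M2 replicate 1 it was -0.37 in M2 against SM&M1 cells.

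**Figure D3:**
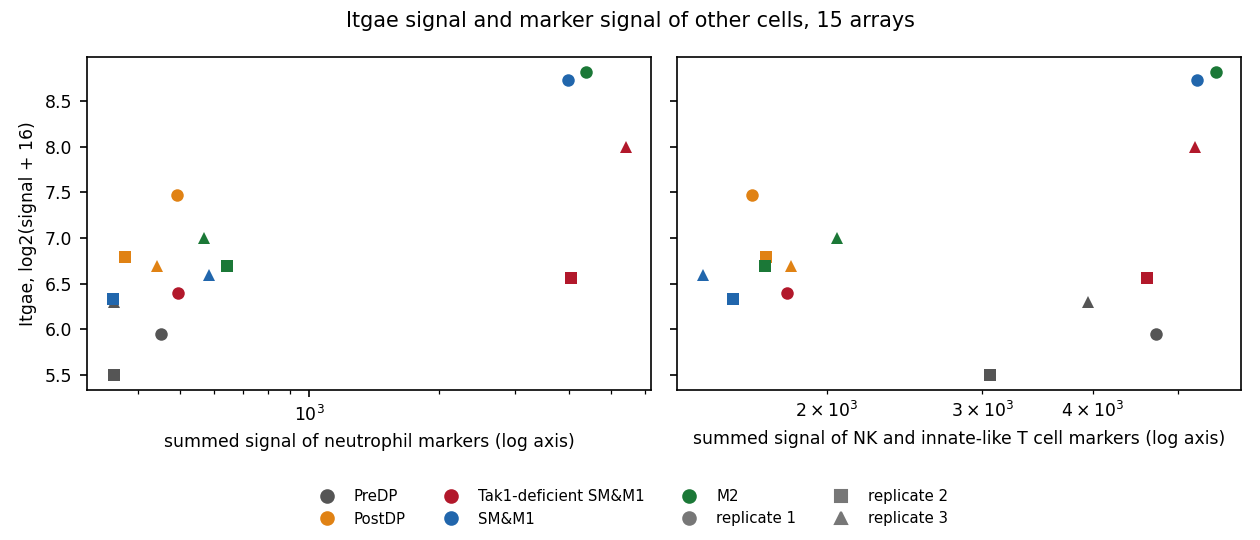
Itgae level on each of the 15 arrays against the summed linear signal of 8 neutrophil markers (left) and of 11 NK and innate-like T cell markers (right), both on log axes; colours are groups and shapes are replicate numbers. The 3 arrays with Itgae at 8.0 or above have neutrophil sums of 3984 to 5405 and NK sums of 5220 to 5512. Tak1-deficient SM&M1 replicate 2, with sums of 4047 and 4610, and PreDP replicate 1, with an NK sum of 4715, have low Itgae, at 6.56 and 5.95. On PreDP replicate 1 only 2 of the 11 NK markers lay above the array median. Most of that sum was Gzma, at 12.08 on that array and 11.76 on average in PreDP cells.

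The β1 chain joins α4, α5, α6 and other α chains into receptors for fibronectin, VCAM-1 and laminin. Itgb1 (chr8:128685654-128733579) measured 9.20, 9.78 and 9.85 in PreDP cells, 9.46, 9.77 and 9.58 in PostDP cells, 9.15, 9.31 and 9.12 in SM&M1 cells and 8.20, 8.42 and 7.48 in M2 cells. The first 2 stages overlapped, and M2 arrays lay below every other array. Itgb1 fell by 1.16 on the log2 scale (SE 0.26, limma adjusted p = 0.0326) in M2 against SM&M1 cells, to 0.447 of the SM&M1 level. The second probe set above the limit averaged 8.46 in M2 cells against 9.19 in SM&M1 cells, a log2 change of -0.73 ± 0.26 that did not pass (adjusted p = 0.253). The call was lost in 11 of 26 alternatives, among them the mean of all 6 probe sets, 4 of which lie below the limit (-0.28 ± 0.16, adjusted p = 0.667), and 7 of the fits that leave out 1 array. Without the 4 arrays high in other cells' markers the log2 change was -1.26 ± 0.31 (adjusted p = 0.0699). Itgb1 log2 changes were -0.01 ± 0.26 in PostDP against PreDP and -0.40 ± 0.26 in SM&M1 against PostDP cells.

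Itga6 (chr2:71786886-71858427) encodes α6, which forms laminin receptors with β1 and β4. It measured 11.20, 11.49 and 11.40 in PreDP cells, 9.94, 10.19 and 9.75 in PostDP cells, 10.36, 10.55 and 10.09 in SM&M1 cells and 11.51, 11.30 and 11.17 in M2 cells. PreDP and M2 arrays were high and overlapped each other, and PostDP and SM&M1 arrays lay apart below them. Itga6 fell by 1.41 on the log2 scale (SE 0.31, limma adjusted p = 0.00744) in PostDP against PreDP cells, to 0.377 of the PreDP level, and this call held in all 26 alternatives. Its second probe set gave -1.47 ± 0.31 (adjusted p = 0.00563). In M2 against SM&M1 cells the log2 change was 0.99 ± 0.31 with an adjusted p of 0.163, and 0.98 ± 0.31 by the second probe set. This difference passed in the fit of only these groups (adjusted p = 0.0254; 0.0313 with the replicate block) and without Tak1-deficient SM&M1 replicate 2 (adjusted p = 0.00256). Itgb4, the other β partner of α6, did not reach the limit for testing.

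Itga5 (chr15:103344286-103366791) encodes α5, the partner of β1 in the classical fibronectin receptor. It measured 7.28, 7.64 and 7.24 in PreDP cells, 7.86, 7.60 and 7.92 in PostDP cells, 7.63, 7.64 and 7.80 in SM&M1 cells and 6.52, 6.36 and 6.89 in M2 cells. The M2 arrays were below all others of the 4 stages, and the signal was dim throughout, above its own array median on 9 of 15 arrays. The log2 change was 0.41 ± 0.32 in PostDP against PreDP and -0.11 ± 0.32 in SM&M1 against PostDP cells. In M2 against SM&M1 cells it was -1.10 ± 0.32 (adjusted p = 0.122), and this passed in the fit of only these groups (adjusted p = 0.0186; 0.0281 with the replicate block) and without Tak1-deficient SM&M1 replicate 2 (adjusted p = 0.00154). The other 2 probe sets above the limit, both about at or below the array median in SM&M1 cells, gave -0.64 ± 0.59 and -0.20 ± 0.36 in the same comparison.

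The β2 chain and its αL partner form LFA-1, the receptor with which T cells bind ICAM-1 on antigen-presenting cells. Itgb2 (chr10:77530329-77565708) measured 12.62, 12.56 and 12.57 in PreDP cells, 13.08, 13.18 and 13.13 in PostDP cells, 13.26, 13.51 and 13.81 in SM&M1 cells and 13.17, 13.13 and 13.34 in M2 cells. PreDP arrays lay below all others, PostDP arrays lay below SM&M1 arrays, and M2 arrays overlapped both PostDP and SM&M1 arrays. The log2 change in PostDP against PreDP cells was 0.55 ± 0.29 (adjusted p = 0.272). It passed in the fit of only these groups (0.55 ± 0.12, adjusted p = 0.0195; 0.0285 with the replicate block) and without Tak1-deficient SM&M1 replicate 2 (adjusted p = 0.00955). In SM&M1 against PostDP cells the log2 change was 0.40 ± 0.29, and in M2 against SM&M1 cells -0.31 ± 0.29.

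Itgal (chr7:127296139-127335137) measured 13.09, 13.06 and 12.97 in PreDP cells, 13.48, 13.52 and 13.50 in PostDP cells, 13.06, 13.24 and 13.45 in SM&M1 cells and 12.98, 12.79 and 13.18 in M2 cells. PostDP arrays were higher than every other array of the 4 stages. The log2 change in PostDP against PreDP cells was 0.46 ± 0.15, just outside the threshold (adjusted p = 0.0507), and it passed in 11 of 26 alternatives, the fit of only these groups among them (adjusted p = 0.0382; 0.046 with the replicate block). It was -0.25 ± 0.15 in SM&M1 against PostDP and -0.27 ± 0.15 in M2 against SM&M1 cells. The second Itgal probe set, dimmer, gave larger changes of the same direction in these steps. By that probe set Itgal rose by 0.83 ± 0.22 in PostDP against PreDP cells (adjusted p = 0.0224) and fell by 1.02 in SM&M1 against PostDP cells (SE 0.22, adjusted p = 0.0089), with -0.62 ± 0.22 in M2 against SM&M1 cells. Both LFA-1 chains were therefore higher in PostDP than in PreDP cells on every array, with a call that depended on the fit.

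**Figure D4:**
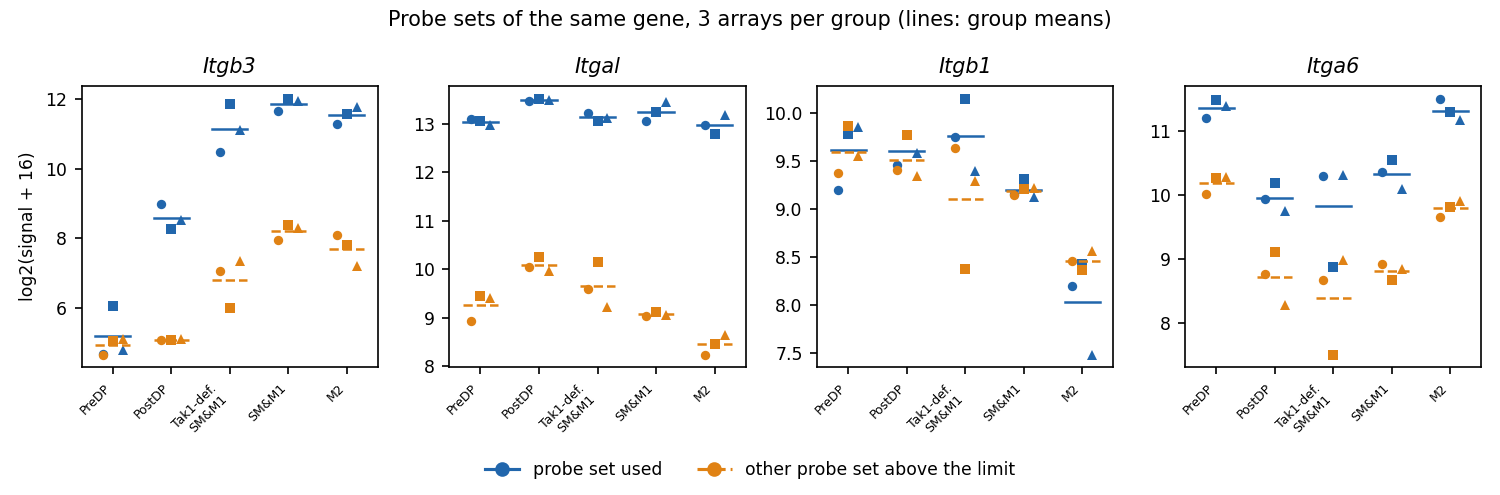
The probe set used (blue, solid mean) and the other probe set above the limit for testing (orange, dashed mean) for Itgb3, Itgal, Itgb1 and Itga6 on every array, as log2(signal + 16); shapes are replicates 1 (circle), 2 (square) and 3 (triangle). The dimmer Itgb3 probe set averaged 5.10 in PostDP and 4.95 in PreDP cells where the brighter one averaged 8.59 and 5.19, and both Itga6 probe sets were lower in PostDP than in PreDP cells.

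In Tak1-deficient SM&M1 against SM&M1 cells, Itga5 was the only member that passed. It measured 6.75, 5.22 and 6.66 in Tak1-deficient SM&M1 cells and 7.63, 7.64 and 7.80 in SM&M1 cells, so the groups did not overlap and the lowest value was that of the array that stood apart. Itga5 fell by 1.48 on the log2 scale (SE 0.32, limma adjusted p = 0.0368). Without that array the change was -0.98 ± 0.18 (adjusted p = 0.012). The call was lost in 18 of 25 alternatives, the fit of only these groups and both fits on another scaling among them, and without the 4 arrays high in other cells' markers it was -0.97 ± 0.27 (adjusted p = 0.204). The other 2 Itga5 probe sets above the limit lay about at or below the array median on the SM&M1 arrays, where the scale compresses changes. Their log2 changes were 0.34 ± 0.59 and -0.07 ± 0.36. The first of them measured 6.39, 8.22 and 5.67 in Tak1-deficient SM&M1 cells, highest on the array that stood apart. The fall was thus seen by the brightest probe set alone.

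Itgb3 measured 10.48, 11.87 and 11.10 in Tak1-deficient SM&M1 cells and 11.66, 12.01 and 11.94 in SM&M1 cells. Replicates 1 and 3 of the Tak1-deficient group lay below every SM&M1 array, and replicate 2, the array that stood apart, lay among them. The log2 change was -0.73 ± 0.38 (adjusted p = 0.331), and -1.09 ± 0.37 (adjusted p = 0.144) without that array. The dimmer Itgb3 probe set averaged 6.81 in Tak1-deficient SM&M1 cells against 8.21 in SM&M1 cells, a log2 change of -1.40 ± 0.31 that passed (limma adjusted p = 0.0411). The mean of both probe sets passed as well (-1.06 ± 0.21, adjusted p = 0.0244). The dimmer probe set measured 7.08, 6.0 and 7.34 in Tak1-deficient SM&M1 cells, so its lowest value was that of replicate 2, below that array's median of 7.52. Replicates 1 and 3 also lay below every SM&M1 array (7.95, 8.38 and 8.31). Neither of these passing results was fitted without replicate 2. Itgb7 measured 10.17, 11.35 and 9.91 in Tak1-deficient SM&M1 cells and 10.83, 11.15 and 10.85 in SM&M1 cells. Here too replicates 1 and 3 lay below and replicate 2 above every SM&M1 array. The log2 change of Itgb7 was -0.47 ± 0.30 (adjusted p = 0.425), and without replicate 2 it was -0.90 ± 0.20 and passed (adjusted p = 0.0334).

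Itgb1 measured 9.75, 10.15 and 9.39 in Tak1-deficient SM&M1 cells and 9.15, 9.31 and 9.12 in SM&M1 cells, with no overlap. The log2 change was 0.57 ± 0.26 (limma adjusted p = 0.276), and the second Itgb1 probe set gave -0.09 ± 0.26. That probe set measured 9.64, 8.37 and 9.29 in Tak1-deficient SM&M1 cells and 9.14, 9.21 and 9.22 in SM&M1 cells. By it replicates 1 and 3 lay above every SM&M1 array, and replicate 2, the array that stood apart, lay below them. Itga4 measured 10.79, 10.96 and 11.24 in Tak1-deficient SM&M1 cells and 10.49, 10.63 and 10.68 in SM&M1 cells, again with no overlap and a log2 change of 0.40 ± 0.18 (adjusted p = 0.274). The other 2 Itga4 probe sets above the limit gave 0.34 ± 0.22 and -0.30 ± 0.47, and the mean of all its probe sets 0.04 ± 0.24. The share of all genes without overlap between these groups was not counted. By the probe sets used, the remaining members overlapped between these groups, and the array that stood apart was the extreme value in 3 of them. Itgb2 measured 13.54, 14.82 and 13.38 in Tak1-deficient SM&M1 cells and 13.26, 13.51 and 13.81 in SM&M1 cells, a log2 change of 0.39 ± 0.29, or -0.07 ± 0.15 without replicate 2. Itga6 measured 10.30, 8.87 and 10.31 in Tak1-deficient SM&M1 cells and 10.36, 10.55 and 10.09 in SM&M1 cells, a log2 change of -0.51 ± 0.31, or -0.03 ± 0.17 without replicate 2. Itgav measured 10.52, 9.17 and 10.50 in Tak1-deficient SM&M1 cells and 10.50, 10.35 and 10.39 in SM&M1 cells, a log2 change of -0.35 ± 0.29, or 0.10 ± 0.16 without replicate 2. For Itgb2, Itga6 and Itgav the difference between the groups was thus carried by replicate 2. Itgal measured 13.23, 13.06 and 13.12 in Tak1-deficient SM&M1 cells and 13.06, 13.24 and 13.45 in SM&M1 cells, a log2 change of -0.11 ± 0.15. The second Itgal probe set went the other way, without overlap. It measured 9.59, 10.15 and 9.22 in Tak1-deficient SM&M1 cells and 9.04, 9.12 and 9.05 in SM&M1 cells. Its log2 change of 0.58 ± 0.22 did not pass (limma adjusted p = 0.207). The Itgae log2 change was -0.23 ± 0.66.

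The patterns of the members over the 15 arrays were set beside those of all other tested genes, for the 7 members whose group means spanned at least 1 log2 unit. These correlations are over 15 arrays that share groups and array quality, and describe likeness only. Itgb3 was most like Ppp1r3e (Pearson r = 0.991) and Klk8 (0.986), and Itgb7 most like Cd9 (0.982), which encodes a tetraspanin, and Fry (0.98). Among the members, Itgb3 and Itgb7 were the most alike (0.912). Itga6 was most like Degs1 (0.958) and Parp16 (0.941), Itgb1 most like Cd81 (0.949), which encodes another tetraspanin, and Camk1d (0.939), and Itgb2 most like Pdia4 (0.963) and Nek6 (0.962). Itga5 was most like Dennd5a (0.896) and Ormdl1 (0.895). Itgae was most like Irf8 (0.925), a transcription factor of myeloid and dendritic cells, and Fgl2 (0.916).

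The genes that switch integrins on or link them to the cytoskeleton were described as a list of 38 tested genes. In PostDP against PreDP cells 8 were higher and 1 lower, 23.7% of the list beside 14.9% of all genes, with a median log2 change of 0.03. Evl, an actin regulator, rose by 2.77 ± 0.25 (limma adjusted p = 7.341e-06), Cytip, which binds cytohesins, by 1.17 ± 0.27, Ptk2b, a focal adhesion kinase family member, by 1.12 ± 0.16, and Vasp, an actin regulator, by 1.04 ± 0.16. Rasgrp2, the exchange factor that loads the integrin activator Rap1 and whose value was seen before it was named here, averaged 10.45 in PostDP cells and 11.19 in PreDP cells (log2 change -0.74 ± 0.17, adjusted p = 0.0109). In SM&M1 against PostDP cells 3 of 38 were higher and 4 lower, 18.4% beside 12.0% of all genes. With arrays centred on their median 1 of 38 passed, beside 6.95% of all genes, and with the replicate block 4 of 38, beside 15.4%. Rasgrp2 rose by 1.23 ± 0.17 there (adjusted p = 0.000488), while Zyx, a focal adhesion protein, fell by 0.81 (SE 0.21), Lims1, an adaptor of integrin-linked kinase, by 0.71 (SE 0.18), and Mob1b by 0.68 (SE 0.21). Rasgrp2 passed in all alternatives, whereas Zyx, Lims1 and Mob1b did not with centring, and Mob1b passed in 7 of 26 alternatives. No gene of the list passed in M2 against SM&M1 or in Tak1-deficient SM&M1 against SM&M1 cells by limma, where 3 and 9 of 38 had an unadjusted p under 0.05. In M2 against SM&M1 cells Ptk2b passed, lower, in the replicate block fit.

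Genes for integrin ligands were mostly dim, and 12 of 24 with a probe set were tested. Icam1, the LFA-1 ligand, rose by 0.93 ± 0.16 in PostDP against PreDP cells (adjusted p = 0.00144). L1cam, an adhesion molecule that binds αvβ3, rose by 1.40 ± 0.29 in SM&M1 against PostDP cells (adjusted p = 0.0062). Emilin1, a matrix protein bound by α4β1, averaged 7.28 in M2 cells and 8.33 in SM&M1 cells (log2 change -1.06 ± 0.20, adjusted p = 0.015). Each was the only gene of the list that passed in its comparison, 8.33% of the list, beside 14.9%, 12.0% and 2.33% of all genes in these comparisons. Emilin1 did not pass in M2 against SM&M1 cells with the replicate block, where L1cam passed as higher, or when probe sets were averaged, which also lost L1cam its call in SM&M1 against PostDP cells. None of 12 passed in Tak1-deficient SM&M1 against SM&M1 cells by limma, where 1 had an unadjusted p under 0.05. By the mean of all probe sets Emilin1 passed in that last comparison, and with arrays centred on their median Lamc1 did, both higher.

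TGF-β, which αv integrins release from its latent form and which induces αE in T cells, and the RUNX factors were described through 16 tested genes. In PostDP against PreDP cells 4 were higher and 2 lower, 37.5% of the list beside 14.9% of all genes. With arrays centred on their median 1 was higher and 1 lower, beside 10.3% of all genes, and 2 were higher and none lower when a gene's probe sets were averaged, beside 15.2%. Smad7, an inhibitor induced by TGF-β signalling, rose by 2.33 ± 0.38 (limma adjusted p = 0.000882), the receptor gene Tgfbr2 by 1.19 ± 0.31 and Runx3 by 0.90 ± 0.15, while the co-receptor gene Tgfbr3 fell by 1.23 (SE 0.26). The Smad7 call held in all alternatives, Tgfbr2 and Runx3 lost theirs with centring, and averaging probe sets lost those of Tgfbr2, Runx3 and Tgfbr3. In SM&M1 against PostDP cells 6 of 16 were higher and none lower, again 37.5% beside 12.0% of all genes, with Tgfbr3 up by 2.89 ± 0.26, Smad7 by 2.56 ± 0.38, and the pathway inhibitors Skil by 1.32 ± 0.16 and Smurf2 by 1.25 ± 0.31. None passed in M2 against SM&M1 cells by limma, where 5 had an unadjusted p under 0.05 and 2.33% of all genes passed. In the fit of only these groups Smad7 and Smurf2 passed as higher, and with the replicate block Smad3 also passed, as lower. In Tak1-deficient SM&M1 against SM&M1 cells 3 of 16 were lower, 18.8% beside 1.69% of all genes. Ltbp3, a latent TGF-β binding protein, averaged 7.98 in Tak1-deficient SM&M1 cells and 9.17 in SM&M1 cells, Tgfb1 averaged 10.21 against 11.33, and Ski, an inhibitor of the pathway, averaged 10.55 against 11.49. None of these passed in the fit of only these groups, with the replicate block or without the 4 arrays high in other cells' markers.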

How the data were processed

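Linear signal intensity values per probe set were deposited by the authors for 45101 probe sets on 15 arrays, from total RNA amplified in a single round and labelled with biotin, per the labels' protocols. The algorithm behind the deposited intensity values is not given in the sources used here; each array's mean after trimming 2% at each end is 500. No further normalization was applied, and the deposited values were analysed as log2(intensity + 16), which understates changes of dim genes. Of the probe sets, 34945 had 1 gene, 932 several, 9160 no name here and 64 were controls. The brightest probe set by mean signal stood for each of 18193 genes. Of these, 11871 exceeded the array median (50th percentile) on at least 3 arrays and entered the tests.

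Sample groups are those of the labels. limma (version 3.58.1, R 4.3.3) was fitted to all 15 arrays with 1 mean per group, 10 residual degrees of freedom, without a replicate block, adjusting by Benjamini-Hochberg across all genes tested; calls are at an adjusted p under 0.05. Other probe sets of the members above the limit were tested in a fit to which they were added. Errors of log2 changes are standard errors of that fit; an SD describes 3 arrays. The members, the lists and the tests were chosen with earlier results of these data known. All 10 members are named in every comparison; of each list, up to 4 passing genes per comparison by size of change, and for likeness the 2 genes with the highest r. The alternatives included a fit limited to the groups compared, that fit with the replicate number as a block, other filters, quantile normalization, median centring, the mean of all probe sets, pseudocounts of 1 and 64, eBayes with trend and robust options, and leaving out each array. Leaving out 4 arrays together was added after seeing the data. Same-numbered samples deviated together between PostDP and PreDP (r = 0.339, 0.275 and 0.411) and between M2 and SM&M1 (r = 0.553, 0.436 and 0.326). The numbers, which come from the labels, may therefore pair these samples. The main fit did not use this pairing, and the fits with the block are given as alternatives. Promoter sequences are RefSeq's (GRCm38.p6). Simulated data with 200 changed genes were used to test the fits. No array count or depth exists, and 3 arrays a group limit the precision.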

Additional observations from a re-analysis of the deposited data

How the results depend on the processing

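The 3 arrays a group limit what can be called, and dim genes lie close to the array median (Itga5, Itgae) or below it (Itgb3 in PreDP cells), where the scale compresses changes. Over 26 alternatives (25 for Itga5 and Itgae), no called change of the 10 members turned its direction. The PostDP against PreDP calls of Itgb3 and Itga6 and the SM&M1 against PostDP calls of Itgb3 and Itgb7 held in all alternatives run. The others did not: Itgb7 in PostDP against PreDP lost its call in 4, Itga4 and Itgb1 in M2 against SM&M1 in 7 and 11, and Itga5 lost its call in Tak1-deficient SM&M1 against SM&M1 for 18. The cause was not tested. Over all genes, PostDP against PreDP gave 1772 calls, and 2703 with the replicate block, 2684 without the 4 arrays highest in macrophage, neutrophil and NK markers, and 1171 to 2992 when 1 array was left out. SM&M1 against PostDP gave 1423 calls, 2467 when only these groups were fitted, 825 with arrays centred on their median, and 871 to 2726 when 1 array was left out. M2 against SM&M1 gave 277 calls, 428 when only these groups were fitted, 594 with the replicate block, 132 with centring, and 82 to 672 when 1 array was left out. Tak1-deficient SM&M1 against SM&M1 gave 201 calls, 5 when only these groups were fitted, 0 with the replicate block (658 genes had an unadjusted p under 0.05), 114 with no filter on dim genes, 97 with centring, 54 without the 4 arrays, and 65 to 347 when 1 array was left out. The highest count was in each case the one without Tak1-deficient SM&M1 replicate 2. Centring shifted all genes by -0.14 in PostDP against PreDP and by -0.15 in Tak1-deficient SM&M1 against SM&M1 cells, and took the share of higher calls to 36.1% from 49.3% and to 13.4% from 25.4%. In the block fit of PostDP against PreDP, 5 members were higher (Itgae, Itgal, Itgb2, Itgb3 and Itgb7) and 1 lower, where 2703 of 11871 genes passed. In that of M2 against SM&M1, 3 were higher (Itga4, Itga6 and Itgb7) and 2 lower (Itga5 and Itgb1), where 594 of 11871 genes passed. Without the 4 arrays, Itgb2 also passed in SM&M1 against PostDP. Between Tak1-deficient SM&M1 and SM&M1, and between SM&M1 and PostDP, samples share only a number. The block was added to fits of only the groups compared, and beside those fits without it, it changed among the members the call of Itgb1 alone, in M2 against SM&M1 (adjusted p = 0.0474 with the block and 0.0548 without it).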
